A study of Mus musculus with 15 samples.

Results

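The nuclear receptor genes *Nr1d1*, *Nr1d2*, *Rora* and *Rorb* and the bZIP genes *Dbp*, *Tef*, *Hlf* and *Nfil3* were examined in adult mouse cortex and at *116HG* ChIRP peaks. These 8 genes were chosen by name, from 23235 genes in the RNA-seq table, and all 8 were among the 10297 genes whose mean reached 1 FPKM (fragments counted per gene, divided by transcript length and by library size), called tested genes below. RNA-seq compared cortex of WT C57BL/6J mice with that of *Snord116del* (+/-) mice of strain B6(Cg)-Snord116tm1.1Uta/J. *Snord116del* carries a deletion of the *Snord116* cluster that is inherited from the father, and *116HG* is the long non-coding RNA made from that locus. Adult males were taken at Zt +6 (Zeitgeber time, hours after lights on), 3 WT and 2 *Snord116del*, and at Zt +16, in the dark phase, 2 WT and 2 *Snord116del*. ChIRP (chromatin isolation by RNA purification) used biotinylated oligos against *116HG*, or non-specific control (NSC) oligos, on adult brain, 1 hemisphere for each library. Peak lists were available for 2 WT *116HG* libraries and for single libraries of WT NSC, *Snord116del* *116HG* and *Snord116del* NSC.

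REV-ERB alpha and beta, the products of *Nr1d1* and *Nr1d2*, are transcriptional repressors, and the ROR receptors are activators that bind the same DNA elements. *Arntl*, the gene of BMAL1, is the known target through which both feed back on the core clock. DBP, TEF and HLF are PAR bZIP activators of promoters with D-boxes, and NFIL3 (E4BP4) is a repressor that competes for the same boxes. In many mouse tissues *Nr1d1* and *Dbp* peak in the light phase and *Nfil3* close to the opposite time.

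The table gives 1 FPKM value per group and no value per mouse, so the spread between mice is unknown. No difference below has an error or a test. A gene was called higher or lower (the fold rule) when FPKM + 1 differed by 1.5-fold or more between groups, with 1 FPKM or more in the group with the larger value. In bulk cortex, fewer cells of a type and less RNA per cell cannot be told apart. All changes are log2 ratios of FPKM + 1, which understate the change of low genes. The reads behind each value are not in the table. The 3 entries for *Snord116* RNAs were listed at 0 in all 4 groups, so they could not check the genotype labels. *Snap25*, a neuronal gene, was at 417 to 590 FPKM in the 4 groups, but *Syt1*, another, ranged from 19.4 to 134 FPKM. Of 5 neuronal genes, 3 were higher in *Snord116del* at Zt +6 and 2 did not pass the fold rule.

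In the mm9 assembly, the receptor genes lie at chr11:98629246-98636647 (*Nr1d1*, minus strand), chr14:19036568-19071641 (*Nr1d2*, minus), chr9:68501593-69236053 (*Rora*, plus) and chr19:19005095-19185686 (*Rorb*, minus). The bZIP genes lie at chr7:52960458-52965525 (*Dbp*, plus), chr15:81632851-81657291 (*Tef*, plus), chr11:90197849-90252231 (*Hlf*, minus) and chr13:53062578-53076442 (*Nfil3*, minus).

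The 8 genes spanned a wide range of levels in WT cortex. *Tef* was the most abundant at 20.5 FPKM in WT at Zt +6, higher than 89.2% of tested genes, followed by *Nr1d1* at 9.79 FPKM and *Hlf* at 4.41 FPKM. *Nr1d2* (2.94 FPKM), *Rora* (2.60), *Nfil3* (2.44), *Dbp* (1.86) and *Rorb* (1.82) lay close together, and their order could not be told from a single value each. *Tef*, *Nr1d1* and *Hlf* also had the largest values, in that order, in both Zt +16 groups. *Nr1d2* and *Nfil3* came next, at 2.03 and 1.85 FPKM in WT and 3.18 and 2.54 FPKM in *Snord116del*. Their order could not be told either. In *Snord116del* at Zt +6 the order was different, with *Nr1d1* first at 30.8 FPKM, *Rorb* next after *Tef* and *Hlf* at 9.50 FPKM and *Nfil3* last at 1.79 FPKM.

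**Figure D1:**
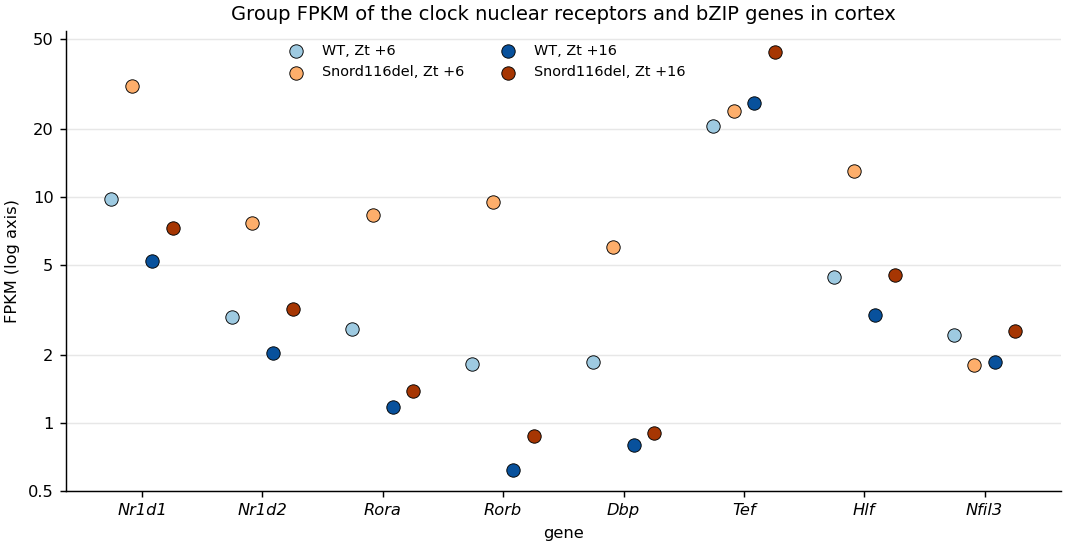
FPKM of each gene (log axis) in the 4 groups, 1 point per group with no error bar because the table has 1 value per group. The *Snord116del* Zt +6 point lies above the other 3 for *Nr1d1*, *Nr1d2*, *Rora*, *Rorb*, *Dbp* and *Hlf*, and not for *Tef* or *Nfil3*.

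Loss of *Snord116* and time of day were compared first for the repressors *Nr1d1* and *Nr1d2*. *Nr1d1* was at 9.79 FPKM (WT) and 30.8 FPKM (*Snord116del*) at Zt +6, against 5.18 and 7.26 FPKM at Zt +16. The *Snord116del* Zt +6 group stood far above the other 3, a change of 1.56 against WT. Its exons share 263 bases with those of *Thra* on the other strand. *Nr1d2* was at 2.94 and 7.65 FPKM at Zt +6 and at 2.03 and 3.18 FPKM at Zt +16, a change of 1.13 at Zt +6. The genotype changes at Zt +16, 0.42 and 0.46, did not pass the fold rule. WT *Nr1d1* was lower at Zt +16 than at Zt +6 by the fold rule (-0.81), while *Nr1d2* (-0.38) did not pass.

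The activators *Rora* and *Rorb* had the same order of groups as *Nr1d1*. *Rora* was at 2.60 FPKM (WT) and 8.31 FPKM (*Snord116del*) at Zt +6, against 1.17 and 1.38 FPKM at Zt +16. *Rorb*, in cortex best known as a gene of layer 4 neurons, was at 1.82 and 9.50 FPKM at Zt +6 and at 0.620 and 0.876 FPKM at Zt +16. Its genotype change at Zt +6, 1.89, was larger than that of 99.0% of tested genes, against 1.37 and 90.1% for *Rora*. Both were lower at Zt +16 than at Zt +6 in WT, by changes of -0.73 for *Rora* and -0.80 for *Rorb*, and neither passed between genotypes at Zt +16 (0.13 and 0.21). Both WT time calls were lost once the length trend was taken out (-0.18 and -0.31). The ratio of *Nr1d1* to *Rora*, the repressor to the activator, was 3.76 (WT) and 3.71 (*Snord116del*) at Zt +6, against 4.43 and 5.27 at Zt +16. As deposited, this ratio differed little between genotypes at Zt +6, although both genes were higher in *Snord116del*. With the length trend taken out, the Zt +6 changes were 1.10 for *Nr1d1* and 0.051 for *Rora*, so they were no longer alike. *Rora* to *Rorb* was 1.43 and 0.874 at Zt +6.

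Among the PAR bZIP activators, *Dbp* and *Hlf* were higher in *Snord116del* at Zt +6 and *Tef* was not. *Dbp* was at 1.86 FPKM (WT) and 6.00 FPKM (*Snord116del*) at Zt +6, against 0.797 and 0.900 FPKM at Zt +16. *Hlf* was at 4.41 and 13.0 FPKM at Zt +6 and at 2.99 and 4.48 FPKM at Zt +16. Changes at Zt +6 were 1.29 for *Dbp*, which shares 491 exon bases with *Sphk2* on the other strand, and 1.37 for *Hlf*. *Tef* was at 20.5 and 24.0 FPKM at Zt +6 (0.22) and at 26.0 and 43.5 FPKM at Zt +16. Its change at Zt +16, 0.72, made it the one gene of the 8 called at that time. *Dbp* thus made up 6.96% of the summed *Dbp*, *Tef* and *Hlf* FPKM in the WT group and 14.0% in the *Snord116del* group at Zt +6, against 2.67% and 1.84% at Zt +16. *Tef* held the largest share in all 4 groups, from 55.8% in *Snord116del* at Zt +6 to 89.0% in *Snord116del* at Zt +16.

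*Nfil3*, the repressor of the D-box pair, did not pass the fold rule in any of the 4 comparisons on the deposited scale. Over time in *Snord116del* its call depended on the scale, from 0.34 as deposited to 0.63 with equal medians and 0.81 with quantile normalization (both higher) and -1.04 on the *Gapdh* scale (lower). It was at 2.44 FPKM (WT) and 1.79 FPKM (*Snord116del*) at Zt +6, against 1.85 and 2.54 FPKM at Zt +16. The ratio of *Dbp* to *Nfil3* was 0.762 (WT) and 3.35 (*Snord116del*) at Zt +6, against 0.431 and 0.355 at Zt +16. *Dbp* exceeded *Nfil3* in *Snord116del* at Zt +6 and in no other group.

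Counted over the 8 genes at Zt +6, 6 were higher in *Snord116del* than in WT and 0 were lower. Of all tested genes, 49.3% were higher and 7.62% lower (56.9% either way). The median change was 1.33 for the 8 genes and 0.57 for all tested genes. At Zt +16, 1 was higher (*Tef*), where 19% of all tested genes were higher, 0.204% lower and 19.2% either, and the medians were 0.37 and 0.35. In WT, 4 of the 8 were lower at Zt +16 than at Zt +6 (*Nr1d1*, *Rora*, *Rorb* and *Dbp*), against 10.3% of all tested genes, with 0 of the 8 and 5.71% of tested genes higher (16% either way). *Dbp* lost that call with quantile normalization (-0.53), and *Rora* (-0.18) and *Rorb* (-0.31) lost it with the length trend removed. In *Snord116del*, 6 were lower at Zt +16 than at Zt +6, against 39.1% of all tested genes, and *Tef* was higher (0.83), against 25%, or 64% either way. With the length trend removed, *Nr1d2* (-0.30), *Rora* (-0.30) and *Hlf* (-0.33) fell short, and *Nr1d1*, *Rorb* and *Dbp* stayed lower. The call of *Tef* as higher was lost with equal totals (-0.23), quantile normalization (0.35) or a fold of 2, and turned to lower on the *Gapdh* scale (-1.11). These comparisons share groups, so 1 group enters 2 of them: the Zt +6 *Snord116del* value is in both the genotype and the time comparison.

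**Figure D2:**
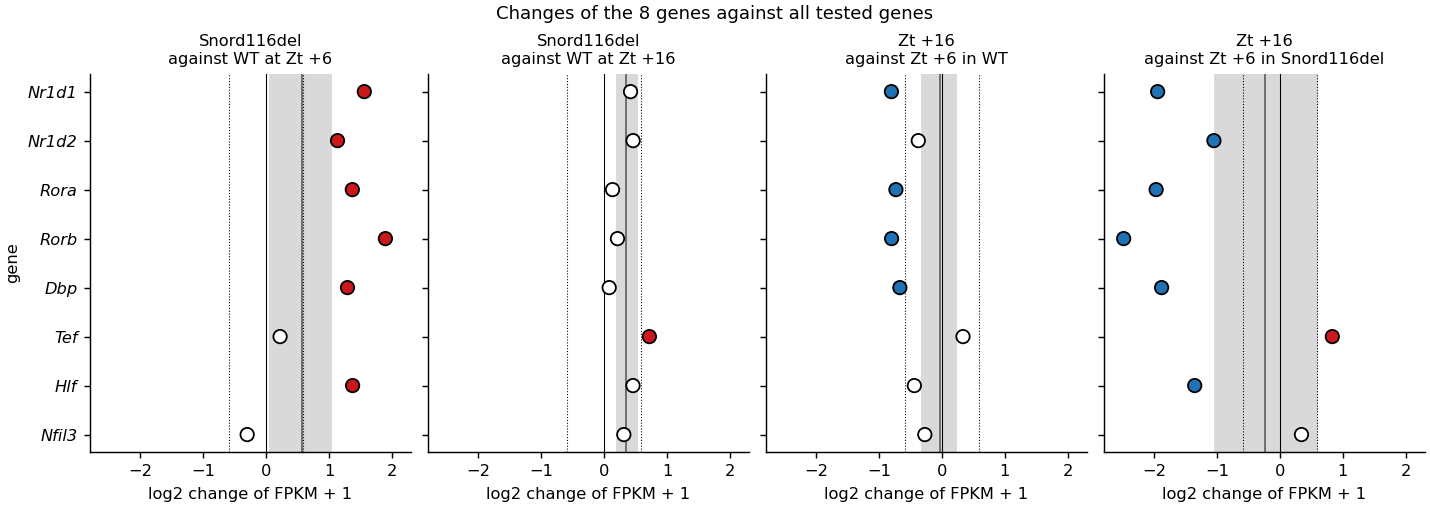
Log2 change of FPKM + 1 of each gene in the 4 comparisons, with 1 point per gene, red when higher and blue when lower by the fold rule (dotted lines) and white when not past it. The grey band is the lower to upper quartile of all 10297 tested genes and the grey line their median. At Zt +6 the 6 red genes lie above the band, *Tef* lies inside it and *Nfil3* below it.

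The genotype change at Zt +16 was smaller than that at Zt +6 for 6 of the 8, by -0.67 (*Nr1d2*) to -1.68 (*Rorb*), and larger for *Tef* (0.50) and *Nfil3* (0.62). Over all tested genes the median of this difference was -0.22, and the quartiles were -0.77 and 0.40. *Rorb*, *Rora*, *Dbp*, *Nr1d1* and *Hlf* lay below the lower quartile, *Tef* and *Nfil3* above the upper one. These quartiles cover genes of all transcript lengths, and the length trend differed between the times. With that trend removed, *Rora* changed by 0.051 at Zt +6 and -0.070 at Zt +16. The values were 0.27 and 0.15 for *Nr1d2* and 0.36 and 0.18 for *Hlf*. They lay further apart for *Rorb* (0.64 and -0.0083), *Nr1d1* (1.10 and 0.039), *Dbp* (1.11 and -0.37), *Tef* (-0.60 and 0.40) and *Nfil3* (-0.59 and -0.11). The difference between genotype changes was not tested.

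Change at Zt +6 was related to transcript length over all tested genes. The 10165 genes with an annotated length were cut into 10 classes of near equal size. From the class with the shortest transcripts to that with the longest, the median change went from -0.40 to 1.25, with a Spearman's rho of 0.63. At Zt +16 it went from 0.57 to 0.20 (rho = -0.38). For Zt +16 against Zt +6, rho was -0.49 in WT and -0.62 in *Snord116del*. Genes are not independent replicates, so these are descriptions. *Dbp* and *Nr1d1* stood out against genes of their own length. With a longest transcript of 1789 bases, *Dbp* changed more at Zt +6 than 96.7% of its length class, which had a median of 0.27. *Nr1d1* (2721 bases) changed more than 97.8% of its class (median 0.49), and *Rorb* (9293 bases) more than 97.3% (median 1.25). *Rora* (10878 bases), in the same class as *Rorb*, changed more than 62.7% of it, and *Nr1d2* (4663 bases) more than 70.6% of its class. *Hlf* (5740 bases) changed more than 80.8% of its class and *Nfil3* (2026 bases) more than 13.9%. *Tef* (4401 bases), in the same class as *Nr1d2*, changed more than 11.8% of it at Zt +6 and more than 96.9% at Zt +16.

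**Figure D3:**
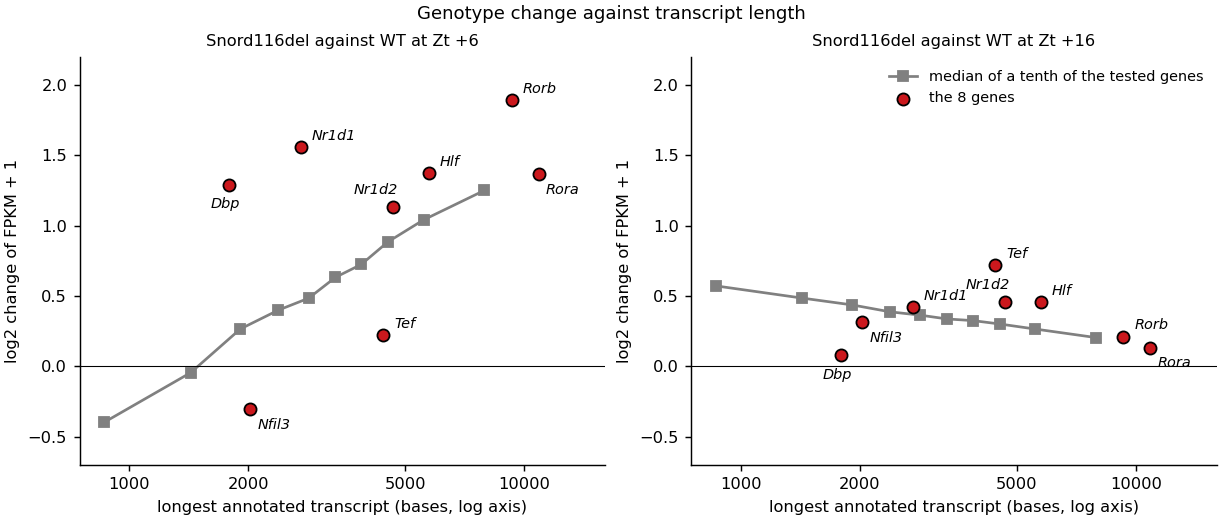
Log2 change of FPKM + 1, *Snord116del* against WT, against the longest annotated transcript (bases, log axis) at Zt +6 and Zt +16. Grey squares are medians of the 10 length classes and red points the 8 genes. At Zt +6 *Dbp*, *Nr1d1* and *Rorb* lie well above the grey line, and *Tef* and *Nfil3* below it.

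With the trend on transcript length removed, *Nr1d1* (1.10), *Dbp* (1.11) and *Rorb* (0.64) still passed the fold rule at Zt +6, while *Rora* (0.051), *Nr1d2* (0.27) and *Hlf* (0.36) did not. *Tef* (-0.60) and *Nfil3* (-0.59) then passed as lower in *Snord116del*. Scaled to the same median in every group, 5 of the 6 stayed higher, *Nr1d2* fell short (0.45), and *Nfil3* was lower (-0.84). On that scale 1480 of 10174 tested genes were higher and 2524 lower, so 37.0% of the calls were in the higher direction against 86.6% as deposited, and the median change of tested genes was -0.081 in place of 0.57. Quantile normalization also left 5 higher and *Nfil3* lower (-0.93), with 50.2% of all calls in the higher direction. *Gapdh* itself was at 1386, 843, 1694 and 3368 FPKM in WT and *Snord116del* at Zt +6 and at Zt +16, so scaling to *Gapdh* raised Zt +6 changes, *Tef* included (0.92, higher), and lowered those at Zt +16. *Tef* at Zt +16 lost its call under all 4 rescalings and with the length trend removed, with 0.077 when totals were equal and -0.24 on the *Gapdh* scale.

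**Figure D4:**
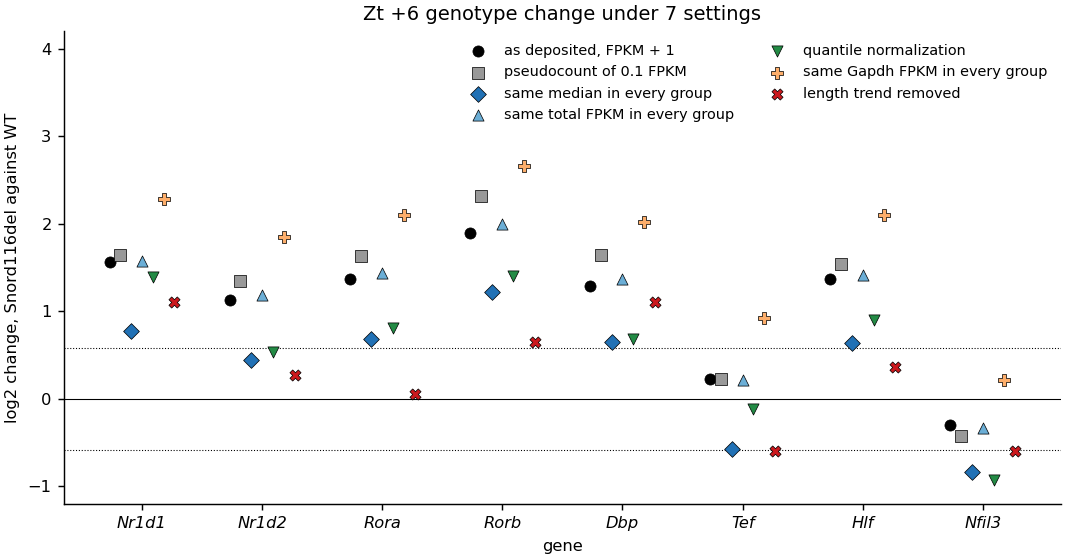
Log2 change at Zt +6 of each gene under 7 settings, 1 symbol per setting and gene. Dotted lines mark a 1.5-fold change. *Nr1d1*, *Rorb* and *Dbp* lie above the upper line under every setting drawn, and *Rora* and *Hlf* under every setting except removal of the length trend.

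Other genes of this circuit were taken from lists of known components. Of the co-repressor complex that REV-ERBs recruit, *Tbl1x* (2.36 to 8.31 FPKM, 1.47) and *Ncor1* (9.79 to 27.7 FPKM, 1.41), genes of its core subunits, were higher in *Snord116del* at Zt +6. *Tbl1xr1*, also higher, was at 1.42 and 4.72 FPKM (1.24). *Gps2* did not pass (0.23), but was higher at Zt +16 (0.59). All 7 genes of ROR co-activators were higher at Zt +6 (list median 1.42), led by the acetyltransferase genes *Ep300* (3.52 to 14.5 FPKM, 1.78) and *Crebbp* (5.31 to 17.5 FPKM, 1.55). *Ppargc1a*, a co-activator with roles in energy metabolism, was at 1.72 and 6.26 FPKM. Of these 7, 0 passed at Zt +16, where 19.2% of all tested genes did. In WT, *Ncor1* (-1.17), *Hdac3* (-0.62) and *Tbl1x* (-0.59) among the co-repressor genes and *Crebbp* (-0.98) and *Ep300* (-0.92) among the co-activator genes were lower at Zt +16 than at Zt +6. The median change of all tested genes was 0.57 at Zt +6, where 49.3% were higher, and that of the class with the longest transcripts was 1.25. In WT, 10.3% of all tested genes were lower at Zt +16 than at Zt +6. The length trend was not taken out of the changes in these lists or in the lists below.

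Targets were counted in the same way. Among 6 tested genes known to be regulated through ROR elements, 3 were higher at Zt +6 (*Clock* 1.56, *Npas2* 1.23, *Arntl* 0.91) and 1 was lower, *Fabp7*, a fatty acid binding protein gene that went from 22.7 to 10.5 FPKM (-1.04). At Zt +16, 0 of the 6 passed. *Arntl* was at 1.44 FPKM (WT) and 3.57 FPKM (*Snord116del*) at Zt +6, against 0.701 and 0.761 FPKM at Zt +16. Among 9 genes known to be regulated through D-boxes, 6 were higher at Zt +6, including *Alas1* (4.01 to 11.9 FPKM, 1.36), the rate-limiting enzyme of heme synthesis, and *Per2* (1.18). *Pdxk*, which makes pyridoxal phosphate, did not pass (13.8 and 14.0 FPKM, 0.021). That list contains *Nr1d1* and *Rora* themselves, and the list of ROR elements contains *Nfil3*. In WT, 3 of the 9 were lower at Zt +16 than at Zt +6, *Per1* (9.89 to 4.03 FPKM, -1.12), *Nr1d1* and *Rora*, while 0 of the 6 ROR element genes passed. In the core clock loop 7 of 10 tested genes were higher in *Snord116del* at Zt +6 (list median 1.02) and 0 at Zt +16. In clock kinases and turnover 5 of 7 were higher, *Gsk3b* (1.42) most, and *Btrc* (0.13) did not pass. The counts at Zt +6 in these lists stand against 49.3% of all tested genes higher, those at Zt +16 against 19%, and those lower in WT at Zt +16 against 10.3%. The 3 of 6 ROR element genes higher at Zt +6 were close to that share.

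Markers of cell types were read at the same comparison, where 49.3% of all tested genes were higher. Astrocyte genes were higher in *Snord116del* at Zt +6 for 5 of 5 (summed 48.1 to 118 FPKM) and endothelial genes for 4 of 4 tested (5.27 to 18.6 FPKM). Genes of cortical layer 4 were higher for 4 of 4 tested (8.44 to 28.0 FPKM). That sum includes *Rora* (2.60 to 8.31 FPKM) and *Rorb* (1.82 to 9.50 FPKM), so it is not separate from the 8 genes. *Cux2* is in this list and in that of the upper layers. Neuronal genes were higher for 3 of 5 (608 to 855 FPKM) and oligodendrocyte genes for 2 of 5 (429 to 661 FPKM), shares near that of all tested genes. Striatal genes were higher for 5 of 5 at Zt +6 (26.8 to 75.9 FPKM) and for 4 of 5 at Zt +16 (25.5 to 48.1 FPKM), where 19% of all tested genes were higher. Microglial genes were higher for 3 of 5 at Zt +6 and 4 of 5 at Zt +16, and upper layer genes for 3 of 3 and 2 of 3. Of the others at Zt +6, deep layers had 2 of 5 higher, hippocampus 2 of 3 and immediate early genes 4 of 8, while the thalamus list had 1 higher and 1 lower of 3 tested and the cerebellum list 1 and 1 of 2. The choroid plexus gene *Ttr* was at 200 and 182 FPKM in the Zt +6 groups and at 24.9 and 29.6 FPKM at Zt +16. The part of cell composition and dissection in the changes of the 8 genes was not tested.

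Genes with the most similar pattern over the 4 groups were sought among all tested genes, by Euclidean distance of centred log2(FPKM + 1). For *Rora* these were *Zfp180* (distance 0.0094), *Mamld1* (0.020) and *Dgki* (0.024), and for *Dbp* they were *Zfp292* (0.020), *2210018M11Rik* (0.025) and *Ildr2* (0.025). *Tax1bp1* (0.044), *Plec* and *Ubtd2* were nearest to *Nr1d1*, *Kcnj2* (0.041) to *Nr1d2*, *Strbp* (0.059) to *Rorb*, *Copg2* (0.027) to *Hlf* and *Rom1* (0.034) to *Tef*. *Nfil3* had the least company, with *Ifit3* nearest (0.083) and 55 tested genes within a distance of 0.25, against 166 for *Rorb* and 810 for *Nr1d2*.

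RefSeq promoter windows (GRCm38.p6, from 250 bases before to 50 after a start) were found for all 8 genes, 10 windows in all. They were searched on both strands for the E-box CACGTG, the letters bound by CLOCK and BMAL1, for AGGTCA, the half-site bound by REV-ERB and ROR receptors, and for the D-box letters TTATGTAA and TTACGTAA. *Tef* had the E-box in both of its windows, whereas 7.15% of 32851 mouse promoter windows held it. *Nr1d2* and *Nfil3* held AGGTCA, as did 16.3% of windows. In *Nfil3* a T precedes it on the reverse strand, which 2.61% of windows held. D-box letters were in 0 of the 10 windows and in 1.06% of all. A match is a description and not a bound site, and no match says only that these letters are not in this window. The 250 bases before each start follow, 5′ to 3′, with the motif in capitals.

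*Tef*, first start (chr15:81802423-81802672, plus strand): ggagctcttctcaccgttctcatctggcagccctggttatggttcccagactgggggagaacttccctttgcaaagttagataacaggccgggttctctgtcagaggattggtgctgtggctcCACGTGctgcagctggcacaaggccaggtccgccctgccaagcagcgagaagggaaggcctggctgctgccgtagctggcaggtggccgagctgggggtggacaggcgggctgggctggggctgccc
*Tef*, second start (chr15:81811164-81811413, plus strand): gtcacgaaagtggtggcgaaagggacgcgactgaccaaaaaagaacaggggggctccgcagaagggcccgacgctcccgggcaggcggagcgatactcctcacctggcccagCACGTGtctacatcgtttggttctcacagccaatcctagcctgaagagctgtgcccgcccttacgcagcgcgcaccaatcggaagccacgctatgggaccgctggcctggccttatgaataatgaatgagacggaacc
*Nr1d2* (chr14:18239107-18239356, minus strand): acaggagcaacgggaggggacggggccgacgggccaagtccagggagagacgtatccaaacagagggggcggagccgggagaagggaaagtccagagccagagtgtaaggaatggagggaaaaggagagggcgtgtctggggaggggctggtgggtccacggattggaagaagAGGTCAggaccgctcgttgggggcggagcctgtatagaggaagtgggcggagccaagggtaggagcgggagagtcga
*Nfil3* (chr13:52981040-52981289, minus strand): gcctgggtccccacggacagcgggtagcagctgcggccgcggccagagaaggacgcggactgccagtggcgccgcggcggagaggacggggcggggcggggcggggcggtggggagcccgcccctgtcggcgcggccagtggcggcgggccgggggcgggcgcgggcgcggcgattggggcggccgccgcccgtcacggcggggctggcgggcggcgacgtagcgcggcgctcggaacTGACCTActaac

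*116HG* ChIRP peaks were then placed at the 8 genes, with mm9 coordinates from the peak lists and GENCODE annotation of the same assembly. A peak was counted at a gene when it lay inside it or within 2 kb. WT *116HG* replicate 1 had 93 peaks at all 8 genes, where 59.3% of 21853 annotated genes of the table and 93.6% of the tested genes had one. Replicate 2 had 5 peaks at 5 genes (*Rora*, *Rorb*, *Tef*, *Hlf* and *Nfil3*), where 13.9% and 17.5% had one. WT NSC and *Snord116del* *116HG* had 0 peaks at the 8 genes, where 2.3% and 2.26% of annotated genes (2.53% and 2.86% of tested genes) had one. *Snord116del* NSC had 4, at *Rora* (2) and *Dbp* (2), where 7.88% and 10.6% had one. The lists hold different numbers of peaks, from 1280 to 78033, so a 0 in a control list has less behind it than a 0 in replicate 1.

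**Figure D5:**
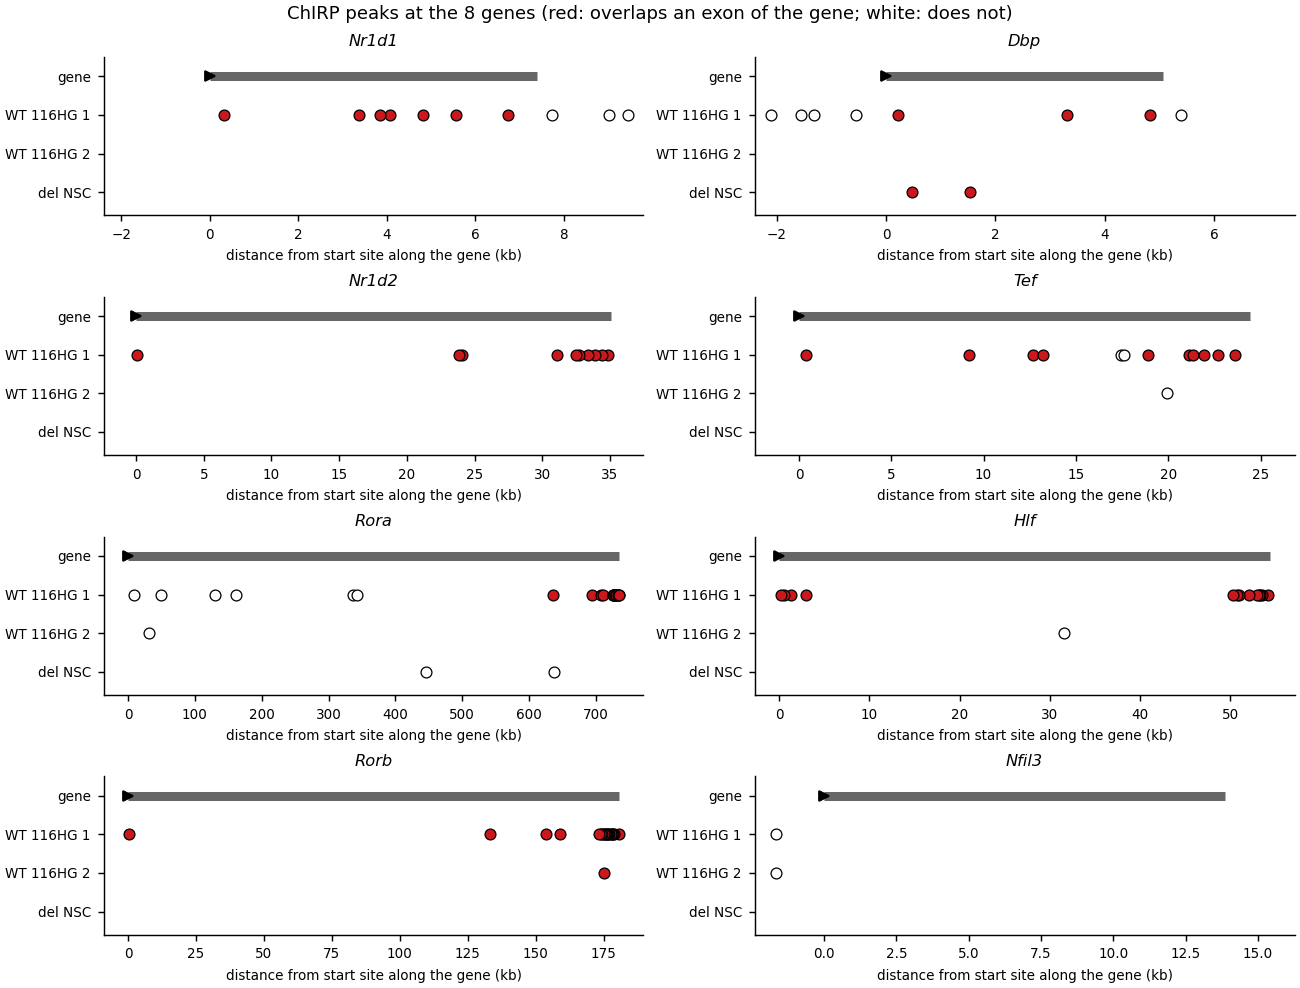
Peaks of 3 lists (rows) at each gene, by distance of the peak's middle from the start site along the gene (kb, axes differ between genes). The grey bar is the gene, the arrow its start, red points overlap an exon and white points do not. WT NSC and *Snord116del* *116HG* had no peak at these genes. Most replicate 1 points are red and gather near the ends of *Rora*, *Rorb*, *Hlf* and *Nr1d2*.

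Replicate 1 peaks lay on exons. Of the 93, 76 (81.7%) overlapped an exon of the gene itself, although exons are 4.89% of the length of the 8 genes, and 81 (87.1%) overlapped an exon of some annotated gene. That share was 85.8% for all replicate 1 peaks at tested genes and 6.89% for replicate 2. Coding exons held 21 of the 93 by the middle base, other exons 54 and introns 9. *Nr1d1* had 10 peaks, with a highest fold over input of 421 at its 3′ end, where its exons overlap those of *Thra*. *Rorb* had 18 peaks, the highest also 421, and *Rora* 21 (highest 103). Among tested genes, peaks per kb of exon increased with WT Zt +6 FPKM (Spearman's rho 0.58 over 10165 genes, a description). The 8 genes had 0.494 (*Nfil3*) to 3.20 (*Nr1d1*) peaks per kb of exon, where the median of tested genes was 1.31. Of the coding exon peaks with intron bases on both sides, 1 each is printed for *Nr1d1* and *Rora*, chosen because they let the exon be seen under the peak. Exon bases are in capitals, and both exons encode part of the zinc finger DNA-binding domain.

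*Nr1d1* (chr11:98632506-98632665, mm9, minus strand): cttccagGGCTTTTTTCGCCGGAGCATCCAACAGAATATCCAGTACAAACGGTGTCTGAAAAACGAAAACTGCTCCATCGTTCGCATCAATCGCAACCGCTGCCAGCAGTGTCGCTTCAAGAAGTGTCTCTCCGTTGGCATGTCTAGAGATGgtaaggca
*Rora* (chr9:69209538-69209692, mm9, plus strand): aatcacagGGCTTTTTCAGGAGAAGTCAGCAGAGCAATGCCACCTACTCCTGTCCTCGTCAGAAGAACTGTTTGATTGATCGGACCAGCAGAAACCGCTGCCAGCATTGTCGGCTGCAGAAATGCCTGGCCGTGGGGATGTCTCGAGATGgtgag

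The exon made up 145 of the 160 bases in *Nr1d1* and 142 of the 155 bases in *Rora*. At *Dbp* 6 of the 8 replicate 1 peaks overlapped exons of *Car11* or *Sphk2*, the genes on either side.

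Peaks in both WT *116HG* libraries within 10 kb of each other were found at 3 of the 8 genes, *Rorb*, *Tef* and *Nfil3*, against 10.9% of the annotated genes and 18.1% of the tested genes. This held for 14 of 18 replicate 1 peaks at *Rorb*, 10 of 12 at *Tef* and 1 of 1 at *Nfil3*, although each gene had a single replicate 2 peak. Peaks of both libraries overlapped directly at *Rorb* and *Nfil3*, and at *Tef* they lay 886 bases apart. Replicate 2 peaks of 3 genes are printed next, each with a run of at least 10 A or T, and the longest run is in capitals. For *Nfil3* the capitals mark instead the 63 bases shared by the peaks of both replicates, and the sequence covers both.

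*Nfil3*, upstream (chr13:53078051-53078129, mm9, minus strand): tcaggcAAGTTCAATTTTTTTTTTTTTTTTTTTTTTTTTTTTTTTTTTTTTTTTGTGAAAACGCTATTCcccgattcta
*Hlf*, intron (chr11:90220653-90220736, mm9, minus strand): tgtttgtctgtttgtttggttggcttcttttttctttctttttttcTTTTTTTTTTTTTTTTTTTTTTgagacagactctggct
*Rora*, intron (chr9:68532835-68532906, mm9, plus strand): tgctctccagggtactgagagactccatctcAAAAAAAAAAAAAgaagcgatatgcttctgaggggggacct

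The *Nfil3* pair lay 1.65 kb before the start and consisted mostly of a run of T, 40 bases in the replicate 2 peak. Its middle 32 bases occurred 9439 times in the mm9 genome in the replicate 2 peak and 52 times in the replicate 1 peak, counted on both strands without overlap. For the replicate 2 peaks at *Hlf* and *Rora* the middle 32 bases occurred 1 time each, and for that at *Tef* 6 times. The *Rorb* replicate 2 peak, in an untranslated exon, held a run of 47 bases and is not printed. *Hlf* held a run of 22 and *Rora* one of 13, while the longest at *Tef*, not printed, was 7 of 104 bases. A run of at least 10 A or T was thus present in 4 of the 5 replicate 2 peaks at these genes. It was present in 44.1% of the 10664 replicate 2 peaks on assembled chromosomes, 14.5% of replicate 1 peaks, 11.9% of WT NSC peaks and 1.81% and 3.18% of the *Snord116del* *116HG* and NSC peaks. At the 8 genes it was present in 15 of 93 replicate 1 peaks. The part of these runs in the replicated calls was not tested.

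*Rorb* was the one gene of the 8 both called higher at Zt +6 after removal of the length trend and overlapped by peaks of both libraries. *Nr1d1* and *Dbp*, the other 2 that stayed higher, had no replicate 2 peak within 2 kb, the nearest lying 15.0 kb from a replicate 1 peak at *Nr1d1* and 45.8 kb at *Dbp*. *Tef* and *Nfil3* had replicated peaks and were not higher at Zt +6. With 3 genes in 1 class and 5 in the other and no error on any change, no relation between peaks and changes was tested.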

How the data were processed

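RNA-seq of 9 cortices and ChIRP-seq of 5 brain libraries were used. The authors aligned RNA reads with TopHat2 2.0.5 to mm9 and deposited 1 Cuffdiff 2.0.2 FPKM value per group and gene. Their columns of fold changes, q-values and calls were not used, and 0 columns of per-sample values were left out. The authors aligned ChIRP reads with Bowtie2 2.0.0 to mm9, called peaks per library with MACS 1.4.2 against WT input and filtered them on false discovery rate and fold. Fold over input is the deposited ratio, given for all lists but WT *116HG* replicate 2, which has positions only.

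Here, changes are log2 of (FPKM + 1), over genes whose mean was 1 FPKM or more. The fold rule stands in for a test because the table has no value per mouse. The 8 genes, the gene lists, the choice of sequences shown and the length of A or T runs were chosen with earlier results of these data known. The 8 genes are named throughout, with the 3 genes nearest in pattern to each and, of each list, up to 4 genes past the fold rule in a comparison, by size of change. *Snap25*, *Ttr*, *Thra*, *Sphk2* and *Car11* were chosen after their values were seen. Genes were matched by symbol to GENCODE vM1 on NCBIM37 (mm9): 21853 of 23235 matched, and 98.7% of tested genes had a transcript length. The trend on length was a lowess curve (span 0.3). BED starts were made 1-based. The counts of the co-repressor list and some sequences are not reported here. Promoters are from RefSeq (GRCm38.p6), and their coordinates were not compared with mm9. Alternatives changed the pseudocount, filter, scale, fold and peak windows. The steps were tested on simulated data. Python 3.11.15, numpy 2.4.6, pandas 2.3.3, statsmodels 0.14.6 and matplotlib 3.10.9 were used.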

Additional observations from a re-analysis of the deposited data

How the results depend on the processing

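No paired analysis was possible because the table holds 1 value per group and the replicate numbers in the labels have no column of their own. The paper lists reads per library, but the read count behind each value and the spread between mice are not given. No call by the fold rule has a rate of false calls, and the authors' q-values were not used. For the 8 genes, counts past the fold rule moved by over 1.5 times as follows, and the cause was not tested except where fewer genes were tested. With a mean of at least 5 FPKM, which leaves 3 of the 8, the counts were 2 at Zt +6, 1 for WT over time and 3 for *Snord116del* over time. At Zt +16 between genotypes the count was 2 with a pseudocount of 0.1 and 0 with equal medians, equal totals, quantile normalization, the *Gapdh* scale, the length trend removed or a fold of 2. In WT over time it was 7 with equal totals, 2 with the length trend removed and 0 with a fold of 2. In *Snord116del* over time it was 4 with the length trend removed (*Nr1d1*, *Rorb* and *Dbp* lower, *Tef* higher). Among values called as deposited, *Tef* at Zt +16 turned direction on the *Gapdh* scale (-0.24). Over time in *Snord116del*, *Tef* turned with equal totals (-0.23) and on the *Gapdh* scale (-1.11). The difference of genotype changes of *Nfil3* also turned on the *Gapdh* scale (-0.54). So did the change of *Nfil3* over time in *Snord116del* (-1.04), which was not called as deposited.

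Over all genes, 5858 passed at Zt +6, but 2390 with the filter of 5 FPKM, 9346 on the *Gapdh* scale, 2640 with the length trend removed (1305 higher and 1335 lower) and 3059 with a fold of 2. At Zt +16, 1980 passed, but 3141 with a pseudocount of 0.1, 183 with equal medians, 135 with equal totals (32 higher and 103 lower), 95 with quantile normalization, 997 on the *Gapdh* scale (17 higher), 168 with the length trend removed and 143 with a fold of 2. In WT over time 1645 passed, but 2694 with a pseudocount of 0.1, 1001 with the filter of 5 FPKM, 3085 with equal totals, 1034 with the length trend removed and 287 with a fold of 2. In *Snord116del* over time 6593 passed, but 3088 with the filter of 5 FPKM, 10164 on the *Gapdh* scale and 4368 with a fold of 2.

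The share of calls in the higher direction at Zt +6, 86.6% as deposited, was 70.5% with the filter of 5 FPKM, 97.9% on the *Gapdh* scale and 49.4% with the length trend removed. At Zt +16 it was 98.9% as deposited, 69.4% with equal medians, 23.7% with equal totals, 42.1% with quantile normalization, 1.71% on the *Gapdh* scale and 57.7% with the length trend removed. For WT over time it was 35.7% as deposited, 53.7% with equal medians, 1.65% with equal totals and 5.27% on the *Gapdh* scale, and for *Snord116del* over time 39.0%, 58.4%, 10.5% and 2.21%.

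The 3 genes with replicated peaks became 8 with a window of 50 kb and 2 (*Rorb* and *Nfil3*) when peaks had to overlap. Without the other WT *116HG* replicate, genes with any peak ranged from 5 to 8 of the 8 and from 3027 to 12968 of the table. Of the table, 2381 genes had a replicated peak, but 727 with direct overlap, 1183 within 2 kb, 5932 within 50 kb and 1179 with the upper quartile of fold. With that quartile 0 of the 8 kept a *Snord116del* NSC peak.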

Other observations

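Neighbors that share exon bases with the 8 genes differed from them in places. *Thra*, the gene of thyroid hormone receptor alpha, runs opposite to *Nr1d1* and shares 263 bases of exon with it (8.42% of the exon bases of *Nr1d1*). *Thra* was at 8.41 FPKM in WT and 24.9 FPKM in *Snord116del* at Zt +6, and at 4.26 and 4.83 FPKM at Zt +16. *Sphk2*, a sphingosine kinase gene, runs opposite to *Dbp* and shares 491 bases (16.7% of the exon bases of *Dbp*). It was at 9.85 and 7.42 FPKM at Zt +6 and at 7.70 and 13.9 FPKM at Zt +16, so its groups fell in another order than those of *Dbp*. The strand setting of the authors' counting is not given in the sources used here, so reads from the shared bases could not be assigned, and their part in the values of *Nr1d1* and *Dbp* was not tested.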
